A study of Mus musculus with 6 samples.

Results

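Striatal projection neuron genes were followed in RNA of the mouse cerebrum. These are 9 genes (Drd2, Adora2a, Penk, Gpr6, Tac1, Pdyn, Ppp1r1b, Rgs9 and Pde10a), chosen by their symbols out of the 38087 genes counted, and each symbol matched 1 gene. RNA of 3 wild-type (WT) and 3 Shugoshin-1 haploinsufficient (Sgo1-/+) mice was sequenced, 1 library per mouse. All 6 mice were of a C57BL6-based strain, spelled here as in the labels, and were 24 months old. Sgo1-/+ mice carry a single working copy of Sgo1, which encodes a protector of cohesin on mitotic chromosomes, in every tissue. The tissue was frozen cerebrum with cortex and hippocampus, from which the olfactory bulb, cerebellum and medulla had been left out, and the sources used here do not name the striatum. WT replicate 1 and Sgo1-/+ replicate 2 were male and the other 4 mice were female. WT libraries were sequenced in run 258 and Sgo1-/+ libraries in run 259, so genotype and run cannot be told apart.

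The striatum is the input station of the basal ganglia, and nearly all of its neurons are spiny GABAergic projection neurons. Those of the direct pathway project to the substantia nigra and the inner pallidum, carry the D1 dopamine receptor and make substance P and dynorphin. Those of the indirect pathway project to the outer pallidum, carry the D2 dopamine receptor and the adenosine A2a receptor and make enkephalin. Dopamine raises cyclic AMP in the former through a stimulatory G protein and lowers it in the latter, and both kinds share the phosphatase inhibitor DARPP-32, the phosphodiesterase PDE10A and the G protein regulator RGS9. Among the members, Drd2, Adora2a, Penk and Gpr6 belong to the indirect pathway, Tac1 and Pdyn to the direct pathway, and Ppp1r1b, Rgs9 and Pde10a to both.

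The members lie on 7 chromosomes of mm10. In the deposited table Drd2 lies on chromosome 9 from 49340662 to 49407214, Adora2a on chromosome 10 from 75316943 to 75334788, and Gpr6 on chromosome 10 from 41069989 to 41072285. Penk lies on chromosome 4 from 4133531 to 4138819, Tac1 on chromosome 6 from 7555071 to 7562973, and Pdyn on chromosome 2 from 129686565 to 129699844. Ppp1r1b lies on chromosome 11 from 98348404 to 98357796, Rgs9 on chromosome 11 from 109225355 to 109298129, and Pde10a on chromosome 17 from 8525372 to 8986648. Exons of Penk overlap the antisense gene A830012C17Rik, and those of Ppp1r1b overlap the antisense gene 1700003D09Rik. Whether the counting used the strand is not given in the sources used here, so reads of these pairs may not have been told apart. The estimated counts of the antisense genes were at most 19.5 and 87.0 in any library.

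RefSeq promoter sequences (build GRCm38.p6) matched 6 of the 9 members; Penk, Ppp1r1b and Adora2a had no entry. Below are the 250 bases before the RefSeq start of 2 indirect-pathway receptors and of a direct-pathway peptide, shown as examples of the 2 pathways. This start can differ from that of other annotations. For Drd2 the window ends at 49340402, while the gene starts at 49340662 in the coordinates above. For Tac1 it ends at 7555060, past the gene start of 7554879 in GENCODE vM21. In Gpr6 (chr10:41072291-41072540, minus strand) the capitals mark a full cyclic AMP response element (TGACGTCA), which begins 78 bases before the start. In Drd2 (chr9:49340153-49340402, plus strand) they mark 2 GC boxes (GGGCGG or its complement), and in Tac1 (chr6:7554811-7555060, plus strand) 2 half-sites of the cyclic AMP response element (TGACG or its complement CGTCA).
Gpr6: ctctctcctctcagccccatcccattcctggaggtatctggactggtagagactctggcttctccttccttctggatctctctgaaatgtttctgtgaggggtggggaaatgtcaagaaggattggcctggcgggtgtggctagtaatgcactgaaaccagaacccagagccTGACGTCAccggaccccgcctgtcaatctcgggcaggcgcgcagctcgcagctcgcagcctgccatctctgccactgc
Drd2: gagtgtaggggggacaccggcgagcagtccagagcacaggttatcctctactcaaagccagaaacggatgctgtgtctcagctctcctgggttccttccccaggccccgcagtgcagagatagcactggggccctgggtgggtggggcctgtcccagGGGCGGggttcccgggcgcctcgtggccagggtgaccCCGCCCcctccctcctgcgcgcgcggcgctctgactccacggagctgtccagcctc
Tac1: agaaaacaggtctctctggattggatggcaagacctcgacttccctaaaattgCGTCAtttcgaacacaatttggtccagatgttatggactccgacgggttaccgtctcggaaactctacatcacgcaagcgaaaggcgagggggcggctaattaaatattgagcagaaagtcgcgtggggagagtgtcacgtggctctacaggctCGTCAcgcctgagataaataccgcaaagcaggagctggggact
Both strands were searched. The full element was in 1.55% of the 32851 promoter windows of this length, and among the 8 windows of members in that of Gpr6. The half-site, which the full element contains, was in 17.8% of all windows and in those of Gpr6 and Tac1, and the GC box was in 32.7% of all windows and in those of Drd2, Tac1, Rgs9 and a window of Pde10a. A match is a description of the letters in these windows. Whether the marked letters bear on the members' values was not tested.

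Libraries held from 11123917 to 12505561 estimated counts. Counts were rounded, scaled by the TMM method of edgeR and compared by its quasi-likelihood test; 16337 genes, all 9 members among them, were left by a filter on low counts. Normalized counts below are scaled to the mean library size, and a positive log2 fold change means higher in Sgo1-/+. Sgo1 itself, the targeted gene, was counted at most 7 times per library, too rarely to check the labels. Of the 6 libraries WT replicate 1 stood apart: its mean Pearson's r with the others was 0.935 across genes, against 0.967 to 0.970 for each of the other 5; genes are not independent replicates. Since this library stood apart, values without it are given beside those of all 6 libraries.

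All 9 members had a higher mean in Sgo1-/+ than in WT, by 1.42-fold (Penk) to 2.29-fold (Gpr6) in the fitted values, but none passed the test and the 2 groups overlapped for each of them. The more marked pattern was between mice of the same genotype. Each member was lowest in WT replicate 1, where it was 2.26 to 19.0 times under the mean of the other WT libraries. Each was also 1.69 to 3.23 times lower in Sgo1-/+ replicate 3 than in the other Sgo1-/+ libraries, and highest in Sgo1-/+ replicate 2.

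**Figure D1:**
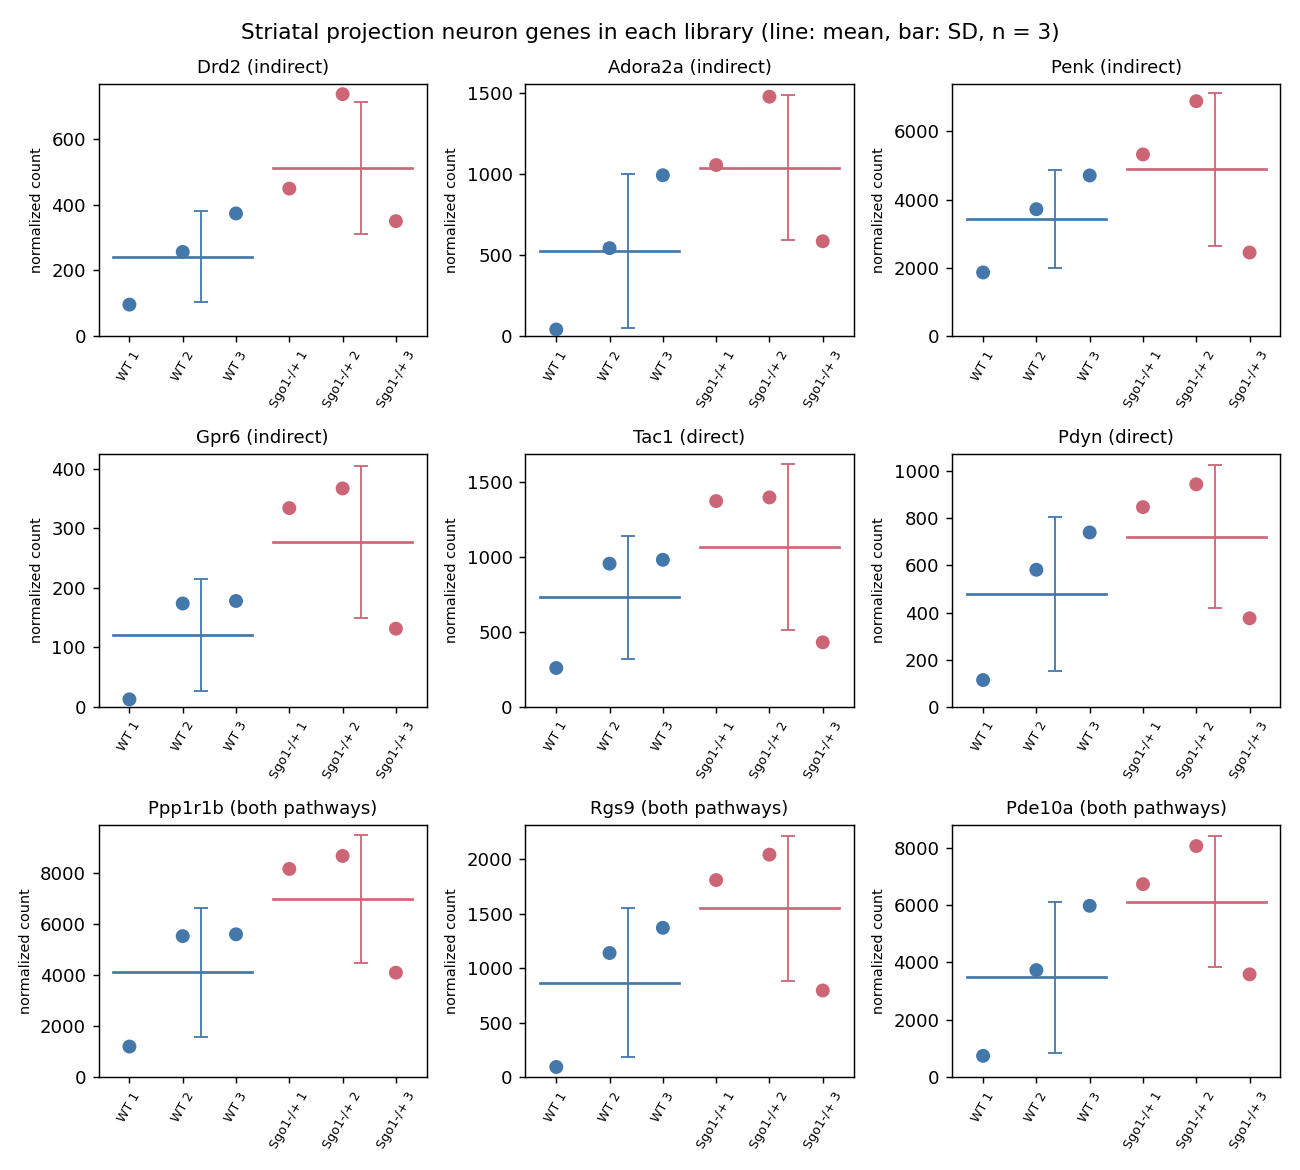
Normalized count (vertical axis, linear) of each member in the 6 libraries, with WT in blue and Sgo1-/+ in red; lines are group means and bars SD (n = 3). WT replicate 1 is the lowest point and Sgo1-/+ replicate 2 the highest point of every panel, and the groups overlap in each.

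The receptors of the indirect pathway came first. Drd2 encodes the D2 dopamine receptor, which couples to inhibitory G proteins. WT mice 1 to 3 had 95.7, 256 and 373 normalized counts, and Sgo1-/+ mice 1 to 3 had 449, 737 and 350. Only Sgo1-/+ replicate 3 fell within the WT range, just under WT replicate 3. Group means were 242 ± 139 for WT and 512 ± 201 for Sgo1-/+ (SD, n = 3 each). This came to a log2 fold change of 1.08 (SE 0.492). In edgeR, the quasi-likelihood p-value of Drd2 was 0.0644 before and 0.9999 after Benjamini-Hochberg adjustment over all genes tested, and the adjusted value was 0.9999 for each of the other 8 members too. Without WT replicate 1 the log2 fold change of Drd2 was 0.70, and with females only it was 0.35.

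Adora2a encodes the adenosine A2a receptor, which raises cyclic AMP and opposes the D2 receptor in the same neurons. It had 40.3, 542 and 991 normalized counts in WT mice 1 to 3, against 1054, 1475 and 584 in Sgo1-/+ mice 1 to 3. Its lowest and highest libraries differed 36.6-fold, the widest span of the 9 members, and WT replicate 1 alone lay far below the rest, while Sgo1-/+ replicate 3 fell between WT replicates 2 and 3. Group means were 524 ± 476 for WT and 1038 ± 446 for Sgo1-/+ (SD, n = 3 each), and the log2 fold change was 0.99 (SE 0.897). Leaving out WT replicate 1 gave 0.44. Gpr6, an orphan receptor that raises cyclic AMP and marks indirect-pathway neurons, was the least abundant member. Normalized counts of Gpr6 were 12.1, 173 and 178 in WT mice 1 to 3, against 334, 367 and 131 in Sgo1-/+ mice 1 to 3. Sgo1-/+ replicates 1 and 2 lay above every WT library, and Sgo1-/+ replicate 3 lay below WT replicates 2 and 3. For Gpr6 the log2 fold change was 1.19 (SE 0.814), and 0.66 without WT replicate 1.

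Penk, the peptide of the indirect pathway, encodes the precursor of the enkephalins and is also made by neurons in many other brain regions. It had 1865, 3720.2 and 4709.9 normalized counts in WT mice 1 to 3, against 5326, 6889 and 2449 in Sgo1-/+ mice 1 to 3. WT replicate 1 was again lowest, although Penk was 2.26 times under the other WT libraries there, against 19.0 times for Adora2a and 14.5 times for Gpr6. In Sgo1-/+ replicate 3 this unevenness was smaller, with Penk 2.49 times, Adora2a 2.16 times and Gpr6 2.67 times under the other Sgo1-/+ libraries. The log2 fold change of Penk was 0.51 (SE 0.449), the smallest of the members over all 6 libraries, and 0.21 without WT replicate 1, where those of Tac1 and Pdyn were smaller.

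Of the direct-pathway peptides, Tac1 encodes the precursor of substance P and neurokinin A. Normalized counts of Tac1 were 258, 956 and 982 in WT mice 1 to 3, against 1375, 1399 and 429.7 in Sgo1-/+ mice 1 to 3. Sgo1-/+ replicates 1 and 2 were nearly equal and above every WT library, while Sgo1-/+ replicate 3 was nearer to WT replicate 1 than to the others of its own group. Pdyn encodes prodynorphin, the source of ligands of the kappa opioid receptor, and is also expressed in dentate granule cells. It had 113, 582 and 741 normalized counts in WT mice 1 to 3, against 848, 945 and 375 in Sgo1-/+ mice 1 to 3. The same libraries were high and low as for Tac1. The log2 fold changes were 0.55 (SE 0.596) for Tac1 and 0.60 (SE 0.646) for Pdyn, and they were 0.14 and 0.13 without WT replicate 1.

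Ppp1r1b encodes DARPP-32, which inhibits protein phosphatase 1 once protein kinase A has phosphorylated it. It had 1197, 5535 and 5606 normalized counts in WT mice 1 to 3, against 8174, 8684 and 4099.7 in Sgo1-/+ mice 1 to 3. Here too Sgo1-/+ replicates 1 and 2 were above all WT libraries and Sgo1-/+ replicate 3 was below WT replicates 2 and 3. Pde10a encodes a phosphodiesterase that degrades cyclic AMP and cyclic GMP in projection neurons. Normalized counts of Pde10a were 740.2, 3734 and 5979.9 in WT mice 1 to 3, against 6735, 8066 and 3586 in Sgo1-/+ mice 1 to 3. The log2 fold change was 0.76 (SE 0.574) for Ppp1r1b and 0.82 (SE 0.678) for Pde10a, and these fell to 0.33 and 0.34 without WT replicate 1.

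Rgs9 encodes a regulator that speeds the switching off of G proteins, and its long splice form is the striatal form. It had 92.6, 1139 and 1370.5 normalized counts in WT mice 1 to 3, against 1809, 2043 and 795 in Sgo1-/+ mice 1 to 3. WT replicate 1 was 13.5 times under the other WT libraries, a drop close to that of Gpr6 and larger than those of Ppp1r1b (4.65 times) and Pde10a (6.56 times). The log2 fold change of Rgs9 was 0.84 (SE 0.831), and 0.30 without WT replicate 1.

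At an adjusted p-value under 0.05, edgeR's quasi-likelihood test called 0 of the 9 members and 0 of the 16337 genes tested (0%). At an unadjusted p-value under 0.05 it called 0 of the 9 members, against 2.04% of all genes tested (0.808% higher and 1.23% lower in Sgo1-/+). It also called 0 members at that level without WT replicate 1 (3.77% of all genes tested), with the replicate number as a block (1.71%) and with sex as a covariate (2.03%). DESeq2's Wald test and edgeR's likelihood ratio test called 3 and 2 of all genes after adjustment and 0 members, and each gave Drd2 alone among the members an unadjusted p-value under 0.05 (0.0261 and 0.0326), as did 2.25% and 2.32% of all genes tested. In edgeR's quasi-likelihood test Drd2 alone was also under that level with no filter on low counts (0.0378, against 2.16% of all genes) and without WT replicate 3 (0.0258, against 6.21%). Groups that did not overlap were found for 0 of 9 members, against 6.81% of all genes tested (3.24% higher and 3.57% lower in Sgo1-/+). Exact two-sided permutation tests of the normalized counts over the 20 groupings of the libraries gave p-values from 0.2 (Drd2 and Adora2a) to 0.5 (Tac1 and Pdyn), where the smallest p that this design allows is 0.1.

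The median log2 fold change over the 9 members was 0.82, beside 0.00 over all genes tested. It was 0.33 without WT replicate 1, and over the 4 female libraries, an alternative chosen after seeing the data, it was 0.09. Among females 6 members had a positive log2 fold change, and those of Penk (−0.12), Tac1 (−0.10) and Pdyn (−0.11) were negative. The median was 0.58 without Sgo1-/+ replicate 2 and 1.33 without WT replicate 3. A fit in edgeR with a term for genotype by sex, made after the low values of WT replicate 1 had been seen, called 6 of 9 members after adjustment, against 3.67% of all genes tested. Each genotype had 1 male: WT replicate 1, in which each member was lowest, and Sgo1-/+ replicate 2, in which each was highest. This fit therefore measures again the deviations of these males and is no test of a difference between the sexes.

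**Figure D2:**
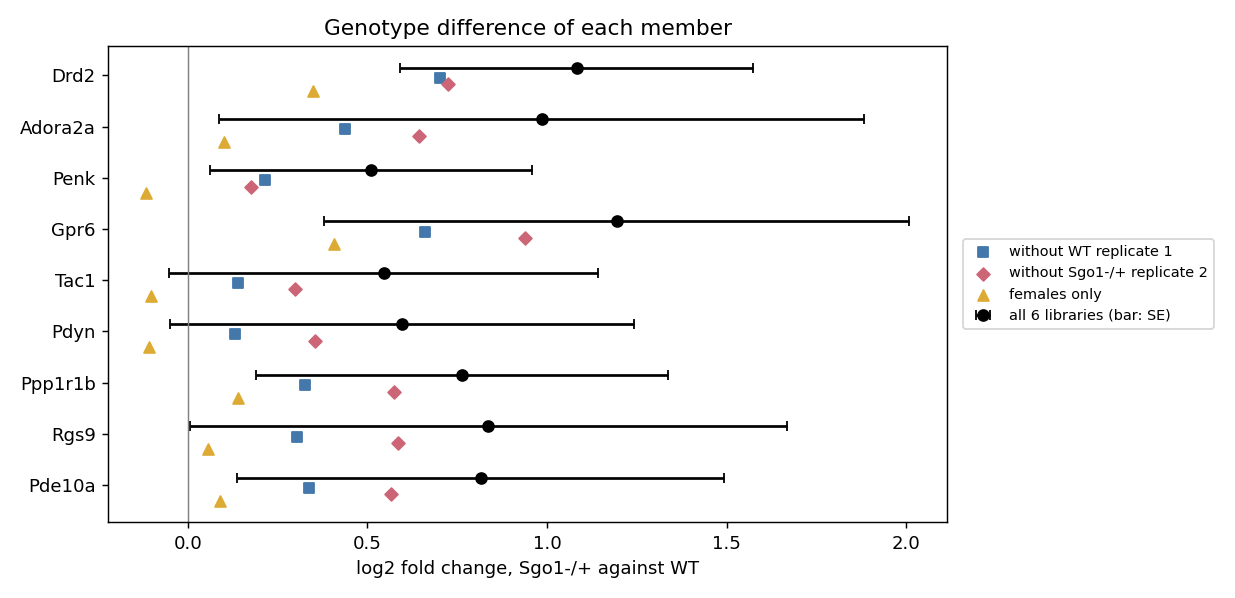
Log2 fold change of each member, Sgo1-/+ against WT (horizontal axis), with all 6 libraries (black circles, bars are SE), without WT replicate 1 (blue squares), without Sgo1-/+ replicate 2 (red diamonds) and with females only (yellow triangles). The values with all libraries lie between 0.51 and 1.19, and those of Penk, Tac1 and Pdyn fall below 0 with females only.

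Levels of different genes were compared per length, as CPM (TMM-scaled counts per total library count) per kilobase of exon. Penk was the most abundant member in each of the 6 libraries (174 ± 73.3 in WT and 248 ± 114 in Sgo1-/+, SD, n = 3), and Ppp1r1b came next in each (117 ± 71.7 and 198 ± 71.1, SD, n = 3). Pde10a followed, between 4.77 and 52.0 over the libraries, and was above Tac1 in 5 of 6. The order of Tac1 and Adora2a was not settled, since each was higher in 3 libraries. Pdyn was above Rgs9 in 6 of 6 libraries, Rgs9 above Drd2 in 4, and Drd2 above Gpr6 in 5. Gpr6 was the least abundant on average, with 5.61 ± 4.37 in WT and 12.9 ± 5.93 in Sgo1-/+ (SD, n = 3). Between neighbours from Tac1 downward the means of each group differed by less than the SD of either gene, and so did those of Penk and Ppp1r1b, although Penk was higher in 6 of 6 libraries.

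The 9 members rose and fell together over the libraries. Each member was lowest in WT replicate 1, as were 30.4% of all genes tested, and highest in Sgo1-/+ replicate 2, as were 13.5%. The value in WT replicate 1 was at least 2-fold under the mean of the other WT libraries for 9 of 9 members, against 9.15% of all genes tested. In Sgo1-/+ replicate 3 the value was at least 1.5-fold under the mean of the other Sgo1-/+ libraries for 9 of 9 members, against 7.58% of all genes tested. Both held for 2.12% of all genes tested. These limits were set after the values were seen. In bulk tissue, fewer projection neurons in a sample and less RNA of these genes per neuron cannot be told apart.

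Between pairs of members, Pearson's r of log2 CPM over the 6 libraries was between 0.833 and 0.997, with a median of 0.960 over the 36 pairs. The median was 0.902 without WT replicate 1, with a lowest r of 0.510, and 0.948 over the 4 libraries other than WT replicate 1 and Sgo1-/+ replicate 3. They are descriptions over 6 points at most, and the members of a library share its mixture of brain regions.

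Among 11329 genes with a mean log2 CPM of at least 3, the 8 genes outside the members with the pattern most like theirs were Rxrg, Pde1b, Bcr, Rarb, Lhfpl4, Chmp1a, Speg and Adra2c. Their Pearson's r with the mean of the members' standardized log2 CPM was between 0.9952 (Adra2c) and 0.9979 (Rxrg) over the 6 libraries, and between 0.9718 (Speg) and 0.9954 (Rarb) without WT replicate 1. An r above 0.95 over the 6 libraries was reached by 304 of the 11329 genes that were not members. Rxrg, a retinoid X receptor, spanned from 45.3 normalized counts in WT replicate 1 to 673 in Sgo1-/+ replicate 2. The retinoic acid receptor gene Rarb spanned from 135 to 565 and the phosphodiesterase gene Pde1b from 1208 to 7121 in the same libraries. Lhfpl4 and Chmp1a had the same order of libraries over narrower ranges of 1.37-fold and 1.53-fold.

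Most genes of projection neurons outside the members were lowest in the same library. Drd1, listed under its older symbol Drd1a, encodes the D1 dopamine receptor of the direct pathway. It had 20.1, 809 and 915 normalized counts in WT mice 1 to 3, against 1218, 1564 and 529.98 in Sgo1-/+ mice 1 to 3, and its log2 fold change was 0.93 (SE 1.02), or 0.36 without WT replicate 1. Its low values in WT replicate 1 and Sgo1-/+ replicate 3 match in place those of the members. Of 22 other genes shared by both pathways, 20 were lowest in WT replicate 1 (Scn4b and Cnr1 were lowest in WT replicate 2) and 21 had a positive log2 fold change, with a median of 0.62, and 0.27 without WT replicate 1. None of the 22 had an unadjusted p-value under 0.05 in edgeR's quasi-likelihood test. The groups did not overlap for 1 of the 22, the transcription factor gene Six3, against 6.81% of all genes tested. Log2 fold changes in this list included 0.87 (SE 0.637) for Gng7, a G protein subunit that works with Gnal, and 0.87 (SE 0.722) for Rxrg, which were 0.40 and 0.38 without WT replicate 1. Meis2, a homeobox gene that is also active in the olfactory bulb, was the exception with −0.22, and −0.61 without WT replicate 1.

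The 5 other genes of the direct pathway had log2 fold changes of 0.82 for Isl1, 0.64 for Chrm4, 0.47 for Slc35d3, −0.01 for Eya1 and −0.99 for Ebf1. Leaving out WT replicate 1 changed these to 0.34, 0.12, 0.09, −0.35 and 0.54, so that the sign of Ebf1 turned. Isl1 encodes a homeodomain factor of these neurons and Chrm4 a muscarinic receptor. Ebf1 differed from the rest in being highest in WT replicate 1, with 598 normalized counts against 84.2 to 163 in the other libraries; it is also expressed outside the striatum. Of the 5 other indirect-pathway genes in the list, Gpr52 was not matched. Sp9 (−0.17), Grik3 (0.09), Gucy1a1 (0.15) and Oprd1 (0.18) had log2 fold changes nearer to 0 than those of the members, with a median of 0.12. All 4 were lowest in WT replicate 1, without which their log2 fold changes were −0.71, −0.18, −0.17 and −0.25 and the median −0.22. Neither Drd1 nor any of these 9 matched genes had an unadjusted p-value under 0.05.

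Downstream of the receptors, 18 genes of the cyclic AMP, kinase and phosphatase machinery had a median log2 fold change of 0.15, and none had an unadjusted p-value under 0.05. The median was −0.004 without WT replicate 1. Pde7b, a phosphodiesterase (0.73), Pde2a (0.60) and Ppp3ca, the catalytic subunit of calcineurin (0.52), had the largest values, which were 0.33, 0.11 and 0.18 without WT replicate 1. Ppp1cb, a catalytic subunit of the phosphatase that DARPP-32 inhibits, had 0.01 (SE 0.110). For 10 genes of opioid and tachykinin receptors and of peptide processing the median was 0.23, and −0.01 without WT replicate 1. Oprk1, the receptor of dynorphin, had 0.29 (SE 0.536), Oprm1 0.40 (SE 0.228) and Tacr1, the receptor of substance P, 0.44 (SE 0.370), against −0.09, 0.28 and 0.24 without WT replicate 1.

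The balance of the 2 pathways was then set out within each library. The mean log2 CPM of the 4 indirect-pathway members minus that of the 2 direct-pathway members was −0.76, −0.44 and −0.19 in WT mice 1 to 3, against −0.17, 0.16 and 0.34 in Sgo1-/+ mice 1 to 3. The groups did not overlap for this difference, although WT replicate 3 and Sgo1-/+ replicate 1 were only 0.02 apart. It averaged −0.46 ± 0.29 over WT and 0.11 ± 0.26 over Sgo1-/+ mice (SD, n = 3 each). It was not tested, since the members were chosen with results of these data known. For the pair of dopamine receptors, log2 CPM of Drd2 minus that of Drd1 was 2.14, −1.65 and −1.29 in WT mice 1 to 3. In Sgo1-/+ mice 1 to 3 it was −1.44, −1.09 and −0.60. WT replicate 1 stood apart, on only 20.1 normalized counts of Drd1, and the groups overlapped with or without it. For the peptides, Penk minus Tac1 was between 1.96 and 2.85 in WT and between 1.95 and 2.51 in Sgo1-/+. The other genes of each pathway also ordered differently from the members, with a median log2 fold change of 0.12 for the indirect and 0.56 for the direct list, against 1.03 and 0.57 for the members. Without WT replicate 1 the medians were −0.22 and 0.23 for the lists and 0.55 and 0.14 for the members.

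**Figure D3:**
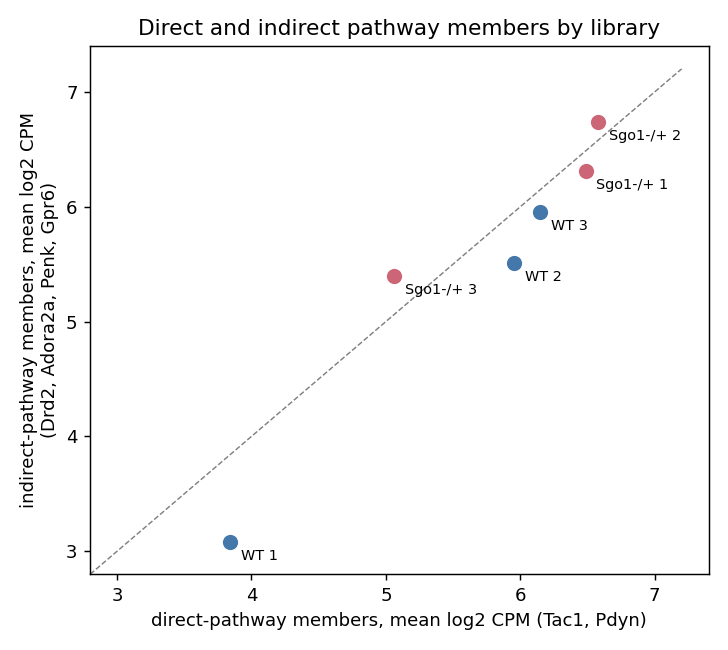
Mean log2 CPM of the direct-pathway members (horizontal axis) and of the indirect-pathway members (vertical axis) in each library, with WT in blue and Sgo1-/+ in red; the dashed line marks equal values. The 3 WT libraries and Sgo1-/+ replicate 1 lie below the line and Sgo1-/+ replicates 2 and 3 above it.

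Markers of other regions moved with the libraries in which the members were low. In WT replicate 1 the summed normalized count of 10 genes of the brain stem and cerebellum was 20561, against 1803 to 2395 in the other 5 libraries, and each of the 10 genes was highest there. Among them Slc6a5, a glycine transporter, had 2654 in WT replicate 1 and at most 40.6 elsewhere, and Hoxb5, a gene of the posterior axis, had 404 against at most 1.99. The sum of the 8 genes of cortical excitatory neurons was also low there, at 4805 against 14377 to 18056 elsewhere. Of these genes 7 were lowest there, and Lamp5 was lowest in WT replicate 2. The 5 oligodendrocyte genes summed to 133736 in that library, to 125949 in Sgo1-/+ replicate 3, the other library in which the members were low, and to between 50255 and 72125 in the remaining 4. In Sgo1-/+ replicate 3 the 8 thalamus genes summed to 5239, against 1632 to 2643 in the libraries other than WT replicate 1, which had 5821. Prkcd, a kinase gene of thalamic relay neurons, had 2114 normalized counts there and at most 537 elsewhere. The thalamus genes did not move as one: Calb2, which other neurons also express, was lowest in Sgo1-/+ replicate 3 (236) and highest in WT replicate 1 (2346), while Lef1 and Ramp3 were lowest in WT replicate 1. Of the 8 hippocampus genes, 5 were highest in Sgo1-/+ replicate 3. Among them were the dentate granule cell genes Prox1 (653), C1ql2 (178) and Dsp (198), which were at most 496, 38.3 and 22.2 elsewhere. The sum of the 8 genes was 4286 there, against 3560 to 4258 in the other libraries. Wfs1 was lower there (1085) than in Sgo1-/+ replicates 1 and 2 (2352 and 2374), and Neurod1 and Tdo2 were highest in WT replicate 1. The cortical genes were not low in Sgo1-/+ replicate 3, where their sum, 18056, was the highest. The part of these regional differences in the members' values was not tested.

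**Figure D4:**
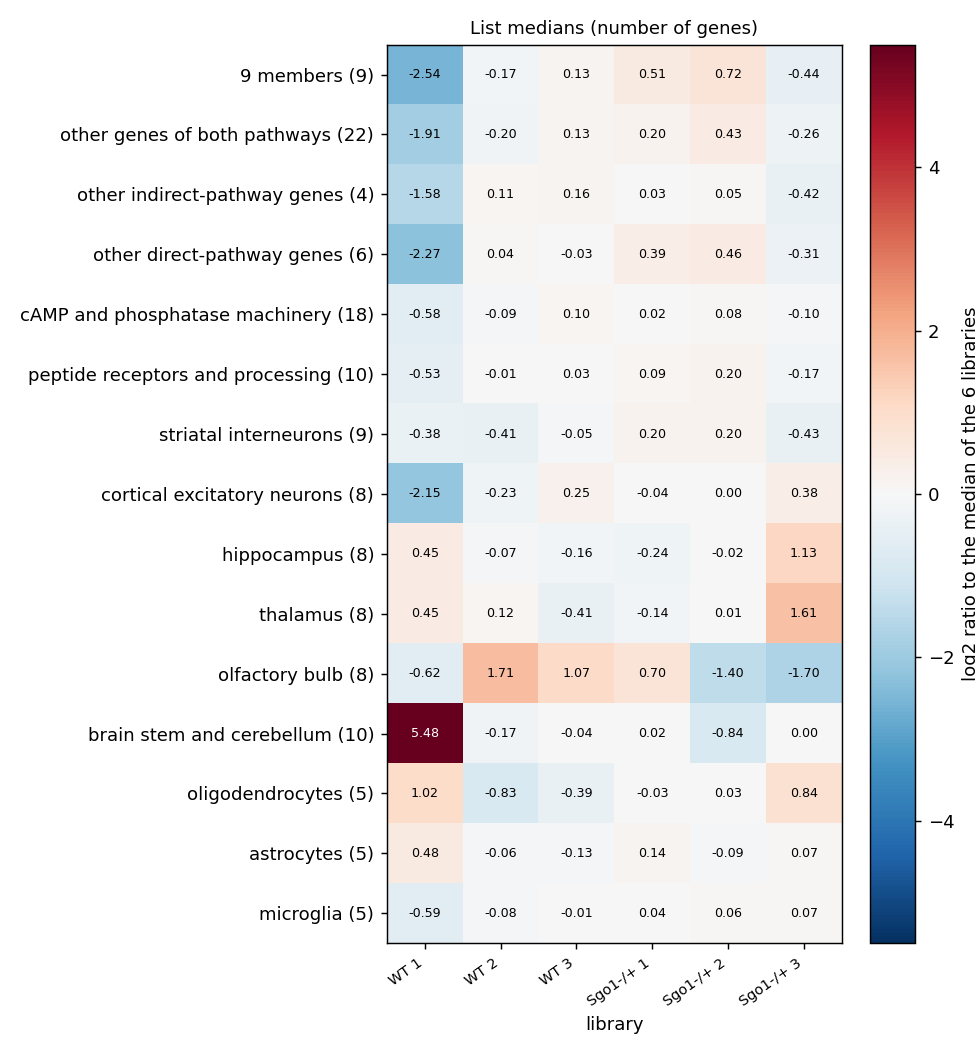
Median, over the genes of a list, of the log2 ratio between a library and the 6-library median (colour and printed value) of each gene list (rows, number of genes in brackets) in each library (columns). The 9 members are at −2.54 in WT replicate 1, where brain stem and cerebellum genes are at 5.48, and at −0.44 in Sgo1-/+ replicate 3, where thalamus genes are at 1.61.

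Other neurons of the striatum and its surroundings gave a mixed picture. Of 10 genes of striatal interneurons 9 were in the table, and their median log2 fold change was −0.07, or 0.22 without WT replicate 1. Lhx8, a factor of cholinergic interneurons and basal forebrain neurons, had 4.03, 50.5 and 41.6 normalized counts in WT mice 1 to 3, against 71.5, 95.2 and 12.3 in Sgo1-/+ mice 1 to 3, and was low in the same libraries as the members. Chat, the enzyme of acetylcholine synthesis, was lowest in Sgo1-/+ replicate 3 (38.9) and second highest in WT replicate 1 (188). Drd3, a marker of the islands of Calleja in the ventral striatum, had at most 21.3 normalized counts and was at or under 3 in WT replicate 1 and Sgo1-/+ replicate 3. The 8 genes of the olfactory bulb, whose interneurons share some of these genes, summed to 1017, 3637 and 2843 in WT mice 1 to 3, against 1989.9, 899 and 603 in Sgo1-/+ mice 1 to 3. That order differs from that of the members, which were highest in Sgo1-/+ replicate 2. The remaining lists had median log2 fold changes of 0.33 for 8 genes of the hippocampus, −0.08 for 6 genes of dopamine neurons, −0.09 for 5 genes of astrocytes, 0.18 for 5 genes of oligodendrocytes and 0.38 for 5 genes of microglia. Without WT replicate 1 these were 0.51, 0.10, 0.11, 0.92 and 0.24, and none of the genes passed the adjusted threshold over all 6 libraries.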

How the data were processed

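Paired reads of TruSeq libraries were aligned to mm10 in Strand NGS, and the authors deposited, for each of 38087 Ensembl genes and each library, an estimated count without normalization (47.4 to 48.6% of a library's values are fractional). The authors also deposited log2 values, which are DESeq-normalized counts with each gene's median over the 6 libraries subtracted, and their own comparison as a log2 fold change, as a signed score and as a ratio without direction; none of these values entered a result. The submitters' processing notes also name BWA and edgeR, without their role. The Ensembl release is not given in the sources used here. The deposited log2 fold change served only to assign columns to genotypes, since it equals the difference between the means of the columns it compares; replicates were assigned by number.

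Estimated counts were rounded and fitted with edgeR 4.0.16 (TMM, default filter on low counts, quasi-likelihood test, no covariates, Benjamini-Hochberg adjustment over 16337 genes, threshold of 0.05). Each SE was derived from the log2 fold change and its F statistic. Alternatives were DESeq2 1.42.0, edgeR's likelihood ratio test, limma 3.58.1, other scalings and filters, a covariate for sex, a block by replicate number, and each library left out. The tests were first tried on simulated data in which no library stood apart. Those data therefore do not show how the tests behave with a library such as WT replicate 1. Exon lengths and older symbols were taken from GENCODE vM21 of the same build, and promoters from RefSeq. P-values measure the spread between mice. The members and lists were chosen with earlier results of these data known. Named genes are the members, the genes of the lists with their defining genes and largest changes, the 8 genes most like the members, and Sgo1. The values of 1 gene that this rule names are not reported here.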

Additional observations from a re-analysis of the deposited data

Results flagged for a closer look

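A fit with a term for genotype by sex (edgeR's quasi-likelihood test), made after the data were seen, passed the adjusted threshold for 6 members. The log2 difference between the male and the female effect was 2.60 for Drd2, 4.50 for Gpr6, 5.09 for Adora2a, 2.72 for Ppp1r1b, 4.41 for Rgs9 and 3.36 for Pde10a; it was 3.18 for Pdyn, 2.54 for Tac1 and 2.00 for Penk, which did not pass. The male effect sets 1 Sgo1-/+ library against 1 WT library, and the spread in this fit comes from the females alone. The WT male is WT replicate 1, the library with high brain stem and cerebellum genes, whose low values for the members had prompted the fit. The Sgo1-/+ male is Sgo1-/+ replicate 2, the highest library for each member. The values therefore describe these males again, and whether the genotype difference depends on sex was not tested.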

How the results depend on the processing

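No member passed the adjusted threshold in any of 16 alternatives. The median log2 fold change of the members stayed positive in all 16, between 0.09 (females only) and 1.33 (without WT replicate 3). With each library left out in turn it was between 0.33 and 1.33, that of the indirect-pathway members between 0.55 and 1.56, and that of the direct-pathway members between 0.14 and 0.94. Of the single members, each kept a positive log2 fold change in every alternative except with females only, where Penk (−0.12), Tac1 (−0.10) and Pdyn (−0.11) were negative and the median of the direct-pathway members was −0.11; the cause was not tested. With sex as a covariate the median of the members was 1.09. With the replicate number as a block it was 1.17, and the block changed no call. Same-numbered libraries did not deviate together (Pearson's r across genes of −0.15, 0.01 and −0.21 for numbers 1 to 3). Whether same-numbered samples shared any handling was not tested. Scaling by total library size gave 0.80. Genotype and sequencing run could not be separated by any alternative. The shallowest value of a member, that of Gpr6 in WT replicate 1, rests on 12 counts.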
